A study of Mus musculus with 6 samples.

Results

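The 10 genes described here carry out cystine uptake, glutathione synthesis, breakdown and recycling, and the wider response driven by the transcription factor NRF2: Slc7a11, Gclc, Gclm, Chac1, Nqo1, Hmox1, Gsr, Srxn1, Txnrd1 and Gpx4. They are 10 of the 20239 named genes on the arrays, each with 1 probe set, taken as the rows whose annotated symbol is one of these names. The genes were chosen by function and from the PDGF-BB response of these same arrays, in which Slc7a11 was already known to be among the largest increases, so their own differences are a description. The number of them past the threshold of the fit over all genes is printed once, beside the share of all genes past it, and supports nothing. The question is whether Slc7a11 was higher together with the NRF2 targets or apart from them.

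The study measured total RNA from isolated mouse pericytes of the C57BL/6 background, the mural cells that wrap small vessels, on 1-colour arrays. The groups were 3 control arrays and 3 arrays of cells given PDGF-BB at 100 ng/ml, both at 5 days. PDGF-BB is a growth factor whose receptors include PDGFR-β. The cells carried no further treatment or genetic change that the labels name. The labels number the arrays 1 to 3 in each group and leave unsaid whether each came from its own culture. The p-values therefore rest on how far these 6 samples scatter, and that scatter may be technical. All values are log2 expression values, and a difference is PDGF-BB minus control.

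The cell type label was set against marker genes. Of 14 pericyte markers 8 lay above a background level of 7.91, which is the 90th percentile of the group means of 18 genes taken as absent because they mark blood lineages. Pdgfrb, a PDGF-BB receptor, had a mean of 12.98 ± 0.11 (SD) over the 3 control arrays and 12.85 ± 0.09 over the 3 others. Tagln, Acta2 and Cd248 were lower, with differences of -2.08, -1.07 and -0.33 (adjusted p = 0.0095, 0.024 and 0.040, limma), and Anpep was higher, with 0.87 (adjusted p = 0.0028). The calls of Acta2 and Cd248 were each lost on leaving out 1 of several arrays (adjusted p = 0.058 to 0.067 and 0.081 to 0.125). Rgs5, Abcc9, Kcnj8, Des, Vtn and Myh11 lay under the level in both groups. Only 1 of 12 endothelial and 2 of 16 macrophage markers lay above it, and 9 of 10 fibroblast markers did, of which Lum and Dpt were higher, with differences of 2.91 and 0.72 (adjusted p = 0.0062 and 0.019, limma). Dpt did not pass on dropping control array 3, PDGF-BB array 2 or PDGF-BB array 3 (adjusted p = 0.061 to 0.066). Of the macrophage markers, 2 were higher (Cd14 and Mpeg1) and 2 lower (Cd68 and Lyz2) with PDGF-BB in limma (25% called, against 21.5% of all genes). Both group means of Mpeg1 and Lyz2 lay under background, as did those of Ptprc, Adgre1 and Csf1r, which define the lineage. The summed level of that list (log2 of the sum) was 11.27 to 11.31 in control and 11.32 to 11.49 with PDGF-BB, and the part of any of these marker changes in the results below was not tested. Cd68 did not pass without PDGF-BB array 1 (adjusted p = 0.067) or 2 (0.058). In a bulk sample, fewer cells of a type and less RNA per cell cannot be told apart.

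Cystine, the oxidised dimer of cysteine, enters the cell through system xc-, a pair of the exchanger Slc7a11 and the heavy chain Slc3a2, in trade for glutamate. Cysteine then limits the making of glutathione, the main small thiol of the cell, which the enzymes Gclc, Gclm and Gss build and Gsr keeps reduced. NRF2 (gene Nfe2l2) is held down by Keap1 and, when released by oxidants or electrophiles, binds antioxidant response elements with small Maf partners, where Bach1 competes as a repressor. Slc7a11 is also a textbook target of ATF4, the transcription factor of the amino acid and integrated stress response, which binds CEBP-ATF composite elements, and Chac1 is an ATF4 target that degrades glutathione.

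Both kinds of element can be looked for in the promoter windows of these genes. RefSeq (GRCm38.p6) windows from 250 bases before to 50 bases after the start site were at hand for 7 of the 10 genes, as 12 windows, of which Txnrd1 had 3 and Gpx4 4. Gclc, Hmox1 and Gsr had no window. The stretches are printed to show the letters of the matches that lie before the start site. Letters run 5′ to 3′ on the gene's strand, with the match in capitals and 20 bases on each side.
Slc7a11, chr3:50443633-50443699, minus strand: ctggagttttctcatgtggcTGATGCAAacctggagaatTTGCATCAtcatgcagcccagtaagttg
Chac1, chr2:119351029-119351076, plus strand: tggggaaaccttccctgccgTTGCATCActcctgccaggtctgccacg
Gclm, chr3:122245403-122245451, plus strand: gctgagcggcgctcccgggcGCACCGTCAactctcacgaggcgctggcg
Txnrd1, its second window, chr10:82859094-82859142, plus strand: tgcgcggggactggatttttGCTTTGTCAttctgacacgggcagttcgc
Srxn1, chr2:152105402-152105505, plus strand: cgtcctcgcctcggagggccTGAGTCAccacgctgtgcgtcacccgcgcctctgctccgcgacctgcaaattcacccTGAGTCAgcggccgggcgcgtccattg

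The capitals in Slc7a11 and Chac1 mark the CEBP-ATF composite element, searched as TGATGNAA on both strands, where N is any base. Slc7a11 held 2 matches, which begin 66 and 47 bases before the start site and face each other, and Chac1 held 1, which begins 193 bases before it. This motif occurred in 3.97% of all 32851 promoter windows of the same length. It was in none of the other 10 windows of these genes. The capitals in Gclm and Txnrd1 mark the core of the antioxidant response element, searched as TGACNNNGC on both strands, at 134 and 92 bases before the start. Srxn1 had its match to that core 28 bases after the start site, in the stretch that is not printed, and its capitals mark instead the AP-1 site TGANTCA, at 102 and 45 bases before the start. The antioxidant core was found in 12.4% and the AP-1 site in 7.81% of all windows. A cyclic AMP response element, TGACGTCA, was in 1.79% of all windows and in none of these 12. No window of Nqo1 or Gpx4 held any of the 4 motifs. Sequence more than 250 bases before the start site was not searched, so a window without a match does not show that a gene lacks the element. The AP-1 and antioxidant motifs can overlap, but no match to the 2 patterns as searched did. The Srxn1 AP-1 site 45 bases before the start reads TGAGTCAgc, which differs from TGACNNNGC in 1 letter, the G after TGA. An antioxidant core with G at that place was not searched. A match describes letters in the window and is not shown to be a bound site.

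**Figure D1:**
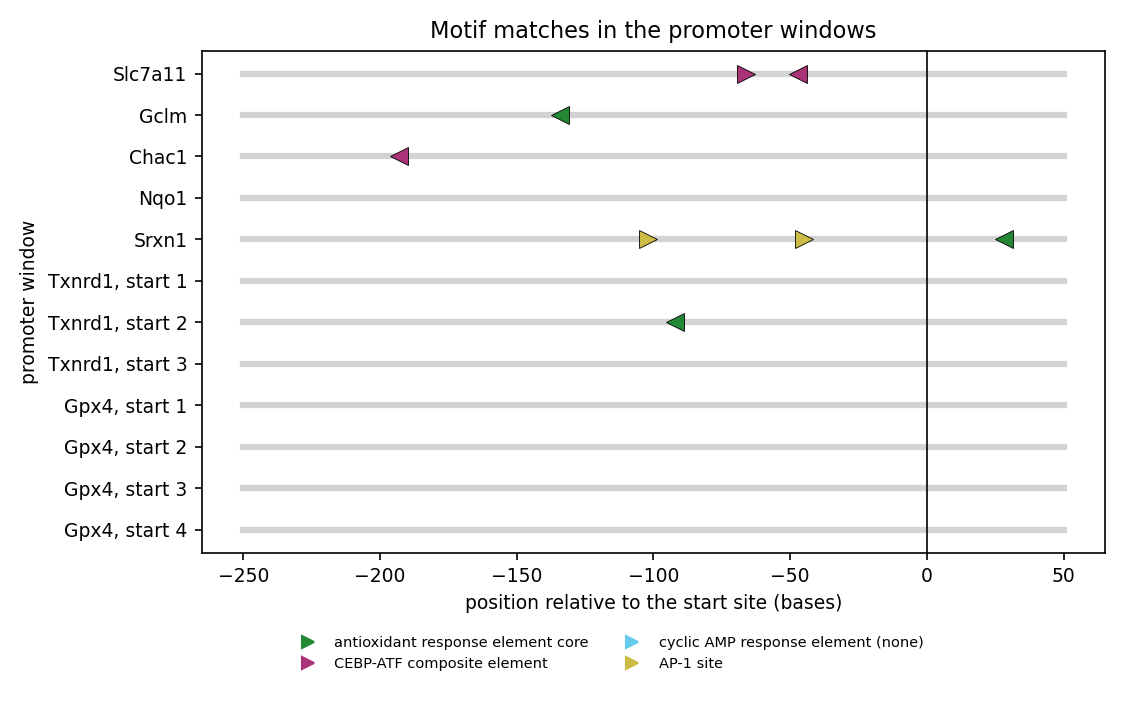
Positions of motif matches in the 12 promoter windows of 7 genes, in bases from the start site (0); triangles point along the strand of the match. The CEBP-ATF composite element was found in Slc7a11 (2 matches) and Chac1 (1), and the antioxidant response element core in Gclm, Srxn1 and 1 window of Txnrd1.

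Slc7a11, the cystine/glutamate exchanger (Entrez gene 26570), moved most of the 10. Its values were 6.79, 6.75 and 6.62 on control arrays 1, 2 and 3, and 9.62, 10.24 and 9.46 on PDGF-BB arrays 1, 2 and 3. All 3 control values lay under the background level and all 3 PDGF-BB values well above it, with a gap of 2.67 between the groups. The difference was 3.06 (SE 0.19, 95% interval 2.61 to 3.51), at least 8.32-fold because the control mean is under background, and the 5th highest of all genes. Between arrays of the same number it was 2.83, 3.49 and 2.85.

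Slc7a11 works only with Slc3a2, the heavy chain that carries it and several other light chains to the membrane. Slc3a2 went from 12.86 ± 0.06 to 13.13 ± 0.05 (mean and SD of 3 arrays each), 1.20-fold higher (adjusted p = 0.021, limma). That call was lost when control array 1 (adjusted p = 0.055) or 3 (0.066) was left out. It was also lost without PDGF-BB array 1 (0.052), 2 (0.078) or 3 (0.050, just above the threshold). On leaving out each array the difference of Slc3a2 was 0.24 to 0.30. In those fits 2934 to 4219 of all genes passed, against 4342 with every array.

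The first enzyme of glutathione synthesis, glutamate-cysteine ligase, has a catalytic and a modifier subunit. Gclc, the catalytic subunit (Entrez gene 14629), measured 10.61, 10.51 and 10.70 on the control arrays and 11.22, 11.20 and 11.25 on the PDGF-BB arrays. The groups did not overlap, and the difference was 0.62 (SE 0.06, 95% interval 0.47 to 0.77), or 1.54-fold. Gclm, the modifier subunit (Entrez gene 14630), measured 11.56, 11.53 and 11.47 on the control arrays and 11.45, 11.54 and 11.56 on the PDGF-BB arrays. The groups overlapped, with a difference of -0.01 and a 95% interval of -0.15 to 0.13. Gss, which completes glutathione, measured 9.13 ± 0.09 and 9.29 ± 0.09 (SD, n = 3 each; difference 0.16, 95% interval -0.02 to 0.33, adjusted p = 0.20, limma).

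Chac1, the cytosolic enzyme that cleaves glutathione (Entrez gene 69065), measured 9.19, 9.09 and 9.11 on the control arrays and 10.55, 10.38 and 10.33 on the PDGF-BB arrays. The groups lay 1.14 apart, with the highest value of each group on array 1. The difference was 1.29 (SE 0.08, 95% interval 1.11 to 1.47), or 2.44-fold, and it was 1.36, 1.29 and 1.21 between arrays of the same number. Gsr, glutathione reductase (Entrez gene 14782), which returns oxidised glutathione to its reduced form, measured 10.52, 10.30 and 9.96 on the control arrays and 11.06, 11.24 and 10.79 on the PDGF-BB arrays. The groups were 0.28 apart and each spread over 0.44 or more, and the difference was 0.77 (SE 0.16, 95% interval 0.38 to 1.16), or 1.70-fold.

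Among the NRF2 targets outside glutathione synthesis, Nqo1 had the largest difference. Nqo1, the quinone reductase (Entrez gene 18104), measured 8.44, 8.64 and 7.81 on the control arrays and 9.80, 10.62 and 9.98 on the PDGF-BB arrays. The groups were 1.16 apart although each spread over about 0.8, and control array 3 lay under the background level. The difference was 1.84 (SE 0.27, 95% interval 1.20 to 2.47), or 3.57-fold, with 1.36, 1.98 and 2.17 between arrays of the same number. Srxn1, sulfiredoxin, which repairs overoxidised peroxiredoxins (Entrez gene 76650), measured 10.75, 10.58 and 10.46 on the control arrays and 11.23, 11.45 and 11.26 on the PDGF-BB arrays. The groups did not overlap, and the difference was 0.72 (SE 0.10, 95% interval 0.49 to 0.94), or 1.64-fold.

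Txnrd1, the cytosolic thioredoxin reductase (Entrez gene 50493), measured 10.63, 10.60 and 10.69 on the control arrays and 10.81, 10.78 and 11.06 on the PDGF-BB arrays. The groups were only 0.09 apart, and the difference was 0.24 (SE 0.09, 95% interval 0.04 to 0.45). Hmox1, heme oxygenase 1, which breaks down heme (Entrez gene 15368), measured 11.31, 11.83 and 11.60 on the control arrays and 11.49, 11.45 and 11.58 on the PDGF-BB arrays. All its PDGF-BB values lay inside the control range, with a difference of -0.07 (95% interval -0.37 to 0.23). Gpx4, the selenoenzyme that reduces lipid hydroperoxides with glutathione (Entrez gene 625249), measured 9.06, 8.99 and 8.99 on the control arrays and 8.90, 8.95 and 8.97 on the PDGF-BB arrays. The PDGF-BB values were all lower, by a gap of only 0.02, and the difference was -0.08 (95% interval -0.21 to 0.05).

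**Figure D2:**
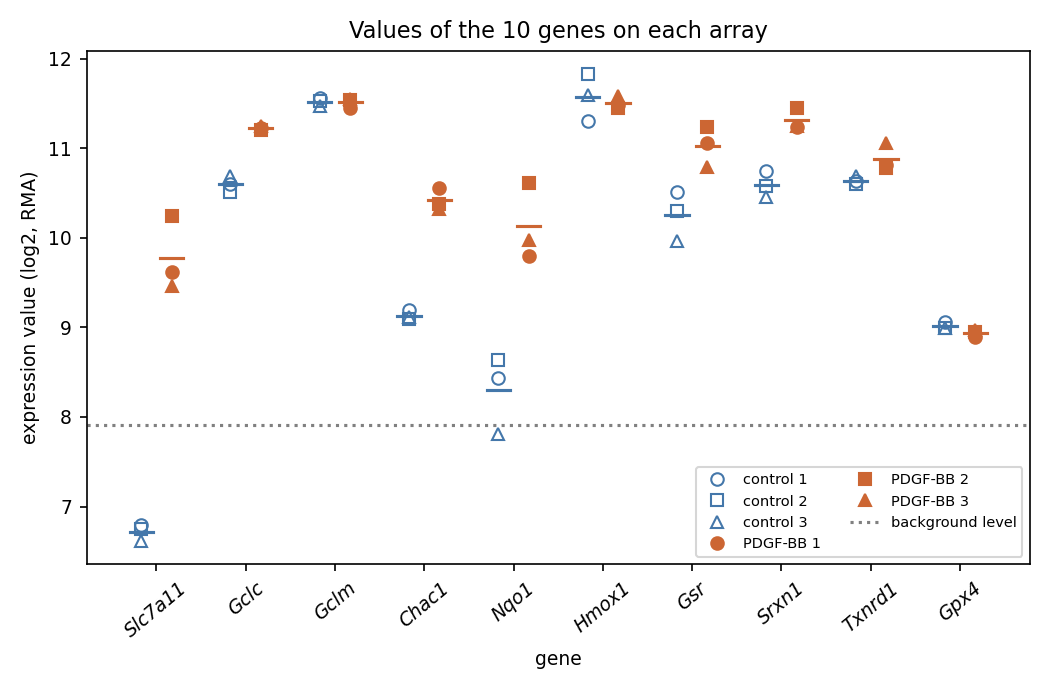
Log2 value of the 10 genes on each array; open blue symbols are control and filled orange symbols PDGF-BB, the shape gives the array number (1 to 3), bars are group means and the dotted line is the background level of 7.91. Slc7a11 goes from under the line (6.62 to 6.79) to 9.46 to 10.24, while Gclm, Hmox1 and Gpx4 have nearly equal means.

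Side by side, the 7 NRF2 targets other than Slc7a11 (Gclc, Gclm, Nqo1, Hmox1, Gsr, Srxn1 and Txnrd1) had differences from -0.07 (Hmox1) to 1.84 (Nqo1), all below that of Slc7a11. In limma's fit over all genes 6 of the 10 passed an adjusted p of 0.05, all of them higher (Slc7a11, Gclc, Chac1, Nqo1, Gsr and Srxn1), where 21.5% of all genes passed, 10.1% higher and 11.4% lower. In 8 of the 10 the groups did not overlap, as in 37.6% of all genes. Since the genes were chosen with these results known, nothing is read from either count. Of the 7 NRF2 targets 4 were among those that passed. Without PDGF-BB array 1 or 2 the count was 5 of 10, with Gsr no longer among them.

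**Figure D3:**
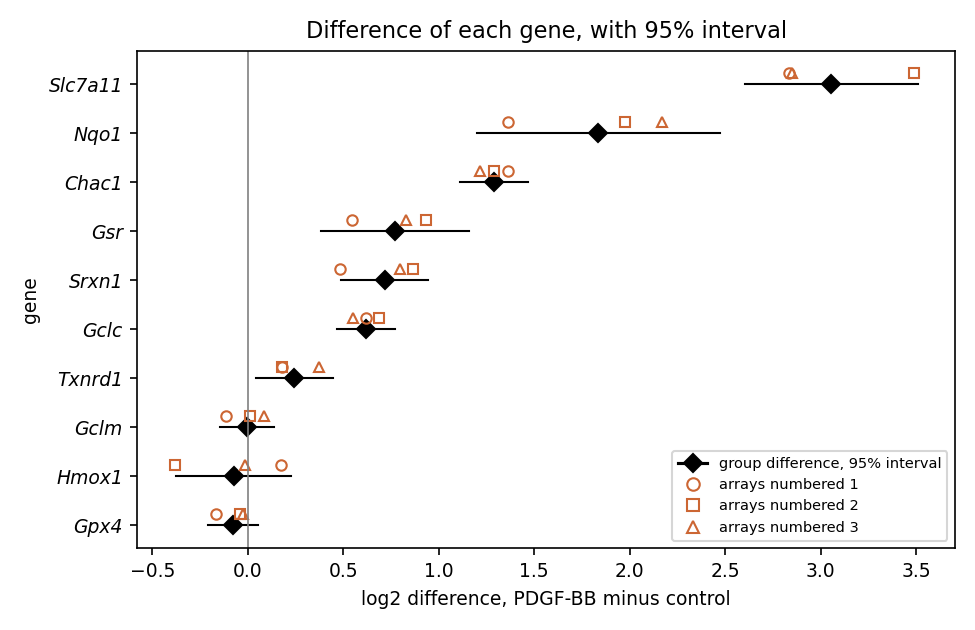
Log2 difference, PDGF-BB minus control, for each gene (diamonds) with its 95% interval (lines), and the difference between arrays of the same number (open symbols, 3 per gene). Slc7a11 lies at 3.06, Nqo1 at 1.84 and Chac1 at 1.29, and the intervals of Gclm, Hmox1 and Gpx4 take in 0.

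The arrays within a group were not ordered alike in all genes. With PDGF-BB, array 2 had the highest value of Slc7a11, Nqo1, Gsr and Srxn1, and of none of the other 6. In control, array 3 had the lowest value of those same 4 genes and of Gclm and Gpx4. Chac1, Gclc and Txnrd1, which also were higher in all 3 pairs of like-numbered arrays, did not follow these orders. Their lowest control value was on array 2. The highest PDGF-BB value was on array 1 for Chac1 and on array 3 for Gclc and Txnrd1. The orders were not particular to members. Some genes of the ATF4 pathway list described below, such as Aars, had array 2 highest with PDGF-BB and array 3 lowest in control. Others of that list, such as Slc6a9, did not. Gfra1, Ifi27l2a, Slco4a1 and Irf7, also described below, had both orders. With 3 arrays a group these orders are a description only.

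The genes whose pattern over the 6 arrays was most like that of Slc7a11 were on none of the pathway lists used here. By the root mean square difference of values centred on each gene's mean, they were Ifi208 (0.22 log2 units), an interferon-inducible protein, Gfra1 (0.23), a receptor for GDNF, Ifi27l2a (0.27), another interferon-induced gene, Slco4a1 (0.31), an organic anion transporter, and Irf7 (0.33), an interferon regulatory factor. Their differences were 3.31, 2.72, 2.71, 2.51 and 2.89. By the same measure Nqo1 was the 56th most alike of 20238 genes, at 0.65, and Chac1 the 210th, at 0.92. The measure favours genes with a difference of similar size.

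The regulators of NRF2 were measured apart from its targets. Of 13 genes 2 were higher, 3 lower and 8 did not pass in limma (38.5% called, against 21.5% of all genes), with a median difference of 0.03. Nfe2l2, NRF2 itself, measured 12.62 ± 0.07 and 12.77 ± 0.03 (difference 0.15, 95% interval 0.01 to 0.30, adjusted p = 0.13, limma, n = 3 each). Keap1, the adaptor that sends NRF2 for degradation, rose 1.29-fold (difference 0.37, SE 0.07, adjusted p = 0.0088), and Mafg, a small Maf partner of NRF2, 1.28-fold (0.35, SE 0.06, adjusted p = 0.0055). Bach1, the repressor at antioxidant response elements, fell to 1.32-fold lower (difference -0.40, SE 0.06, adjusted p = 0.0044), and Mafk, another small Maf, to 1.35-fold lower (-0.43, SE 0.09, adjusted p = 0.014). The last of the 5 was Btrc, an F-box protein with a difference of -0.21 (adjusted p = 0.042). Btrc did not pass in the paired fit (adjusted p = 0.061), with centred arrays (0.054) or an intensity trend (0.051), or on leaving out any 1 array other than control array 1 (0.085 to 0.124). Without PDGF-BB array 1 only 1 regulator was lower and Mafk had an adjusted p of 0.0503.

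In a list of 33 other NRF2 targets 4 genes rose, 6 fell and 23 did not pass (30.3% called, against 21.5% of all genes), and its median difference was -0.05 beside -0.02 over all genes. Those that rose were Ugdh, which makes UDP-glucuronic acid (1.42-fold, adjusted p = 0.0027), Taldo1 and Pgd of the pentose phosphate pathway (1.38-fold and 1.44-fold), and Gstp1, a glutathione transferase (1.28-fold). Gstm1 and Gstm2, glutathione transferases of the mu class, fell by 0.58 and 0.43 on the log2 scale (adjusted p = 0.0031 and 0.0041, limma), Gstm4 of the same class had a difference of -0.49, and Pir, pirin, one of -1.30. The mu class genes are close relatives whose probes were not checked for shared sequence. Txn1, thioredoxin, Sqstm1, the autophagy adaptor p62, and Fth1, ferritin heavy chain, had differences of 0.04, -0.05 and -0.06 and did not pass.

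The ATF4 pathway list, to which Chac1 and Slc7a11 would also belong and from which both were left out, held the most calls. Of 35 measured genes 23 rose, 3 fell and 9 did not pass (74.3% called, against 21.5% of all genes). The median difference of the list was 0.58. A list like it was already known to be higher in these data, so this count is not independent evidence. Atf4 itself rose 1.32-fold (9.62 ± 0.04 to 10.03 ± 0.09, n = 3 each, adjusted p = 0.0064, limma). Slc6a9, a glycine transporter, rose 2.78-fold (difference 1.47, SE 0.09, adjusted p = 5e-04) and Aars, alanyl-tRNA synthetase, 2.01-fold (1.01, SE 0.08, adjusted p = 7.3e-04). The largest difference was that of Mthfd2, a mitochondrial folate enzyme, at 2.16, and Slc7a5, another light chain that pairs with Slc3a2, had one of 1.46. Ppp1r15a, which restores translation after stress, fell to 1.42-fold lower (difference -0.51, SE 0.07, adjusted p = 0.0039). Slc7a3 and Slc38a2, amino acid transporters, had differences of -0.33 and -0.24, and both group means of Slc7a3 lay under background. Slc38a2 did not pass when array 2 of either group, the first PDGF-BB array or control array 3 was dropped (adjusted p = 0.071 to 0.083). Ddit3 (CHOP), with a difference of 0.50 (adjusted p = 0.056), did not pass. The composite element TGATGNAA was in 9 of 40 promoter windows of this list (22.5%), against 3.97% of all windows. Among the other NRF2 targets it was in 1 of 40 (2.5%). The antioxidant core was in 12 (30%) and 9 (22.5%) of the same windows, against 12.4% of all. The windows came from 33 and 32 genes, so a gene with several start sites counts more than once. These shares are a description. Whether the 2 lists differ was not tested.

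**Figure D4:**
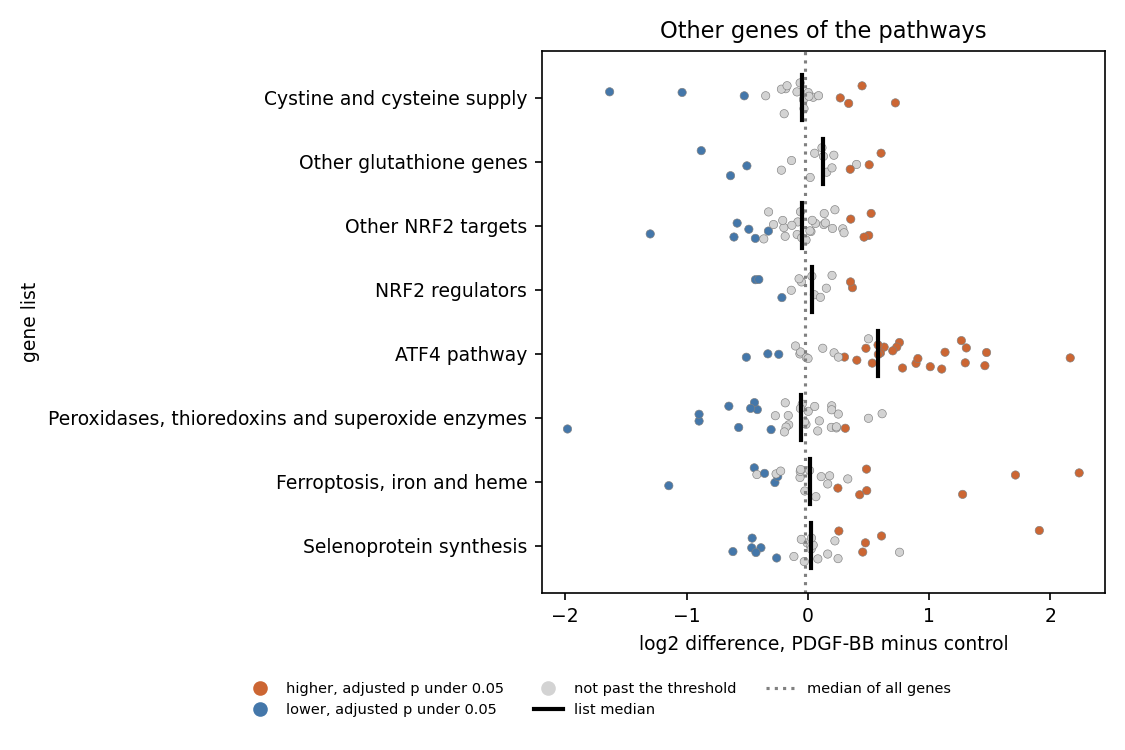
Log2 difference, PDGF-BB minus control, of the 198 measured genes of 8 lists (points; orange higher and blue lower at an adjusted p under 0.05 in limma, grey not past it), with each list's median (bar) and the median of all genes (dotted line, -0.02). The ATF4 pathway has its median at 0.58, and the other NRF2 targets have theirs at -0.05.

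Of 20 genes that supply or use up cysteine 4 were higher and 3 lower (35% called, against 21.5% of all genes), with a median difference of -0.05. Slc1a4, a carrier of neutral amino acids that include cysteine, rose 1.36-fold (difference 0.45, SE 0.07, adjusted p = 0.0057). Cth, the transsulfuration enzyme that releases cysteine, rose by 0.72 from a control mean under background, and Ado, cysteamine dioxygenase, by 0.34, and Slc3a2 completes the 4. On the side of cysteine breakdown, Cdo1, cysteine dioxygenase, fell to 3.10-fold lower (11.03 ± 0.34 to 9.40 ± 0.13, n = 3 each, adjusted p = 0.0016, limma). Suox, sulfite oxidase, was 2.05-fold lower (adjusted p = 0.0033) and Csad, which leads from cysteine sulfinate to taurine, 1.44-fold lower. Cth did not pass on leaving out array 3 of either group, control array 2 or PDGF-BB array 1 (adjusted p = 0.068 to 0.090), and Ado on leaving out any 1 array other than control array 1 (0.053 to 0.094). The number higher dropped to 1 on leaving out array 3 of either group or the first PDGF-BB array, and to 2 on leaving out array 2 of either group.

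Of 16 other glutathione genes 3 rose and 3 fell (37.5% called, against 21.5% of all genes), with a median difference of 0.12. Gsto1, an omega class glutathione transferase, rose 1.42-fold (adjusted p = 0.0032, limma), Ggct, which acts on the γ-glutamyl amino acids of glutathione turnover, 1.52-fold (adjusted p = 0.010), and Esd, S-formylglutathione hydrolase, had a difference of 0.35. Abcc5, an efflux pump, was 1.42-fold lower (adjusted p = 0.0044), Dpep1, the dipeptidase that splits cysteinylglycine, 1.84-fold lower (adjusted p = 0.011), and Oplah, 5-oxoprolinase, had a difference of -0.64. Esd did not pass when control array 3 or either of the first PDGF-BB arrays (1 and 2) was dropped (adjusted p = 0.062 to 0.076), nor Oplah without PDGF-BB array 1 (0.051). With each array centred on its median 5 rather than 3 rose.

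In the list of peroxidases, thioredoxins and superoxide enzymes 9 of 32 were lower and 1 higher (31.2% called, against 21.5% of all genes), with a median difference of -0.05. Gpx1, the abundant cytosolic glutathione peroxidase, fell to 1.86-fold lower (12.37 ± 0.07 to 11.47 ± 0.08, n = 3 each, adjusted p = 7.3e-04, limma), and Msrb1, a selenium-containing methionine sulfoxide reductase, to 1.48-fold lower (adjusted p = 0.0036). Gpx3, the secreted glutathione peroxidase, had the lowest difference of the list, -1.98, and Sod3 and Cat, extracellular superoxide dismutase and catalase, had -0.90 and -0.44. The other 4 were Msrb3, Nox4, Txnip and Nnt, with differences of -0.65, -0.47, -0.42 and -0.30. Msrb3 is another methionine sulfoxide reductase and Nox4 an oxidase that makes peroxide. Txnip is an inhibitor of thioredoxin, and Nnt supplies mitochondrial NADPH. The calls of these 4 were each lost on leaving out 1 of several arrays (adjusted p = 0.054 to 0.090, limma). The number lower was 6 to 8 on leaving out 1 array. Glrx5, a mitochondrial glutaredoxin, was the gene that rose (1.24-fold, adjusted p = 0.032), and it did not pass when control array 2 or 3, or any 1 PDGF-BB array, was left out (adjusted p = 0.074 to 0.10). The number higher was 4 without control array 1, 0 on dropping array 3 of either group, control array 2 or PDGF-BB array 1, and 2 in the paired fit (replicate number as block) or with centred arrays.

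In the list of ferroptosis, iron and heme genes, 7 of 25 rose and 5 fell (48% called, against 21.5% of all genes), with a median difference of 0.01. Ferroptosis is a death by lipid peroxidation that Slc7a11, glutathione and Gpx4 hold back. Gch1, which starts tetrahydrobiopterin synthesis, rose at least 4.71-fold (6.88 ± 0.33, under background, to 9.11 ± 0.19, n = 3 each, adjusted p = 7.7e-04, limma), and Cp, the ferroxidase ceruloplasmin, 2.42-fold (adjusted p = 0.0032). Tfrc, the transferrin receptor, had a difference of 1.71 with a control SD of 1.03 and did not pass on leaving out any 1 array other than control array 1 (adjusted p = 0.088 to 0.117), and Acsl4, which loads membranes with polyunsaturated lipid, one of 0.48. Slc40a1, the iron exporter ferroportin, fell to 2.21-fold lower (adjusted p = 0.0081) and Fech, ferrochelatase, to 1.28-fold lower (adjusted p = 0.016). Steap3, Aifm2 and Ncoa4 were the other 3 that fell, by 0.44, 0.27 and 0.25. Each of them was lost on leaving out 1 of 5 arrays (adjusted p = 0.052 to 0.139), Ncoa4 also with an intensity trend (0.0501), and Aifm2 also in the paired fit (0.076), with centred arrays (0.056) and with that trend (0.067). The number lower was 3 on dropping control array 1, control array 2 or PDGF-BB array 3. It was 1 on dropping control array 3, PDGF-BB array 1 or PDGF-BB array 2, and Fech then had an adjusted p of 0.052 to 0.058. The number higher was 4 without PDGF-BB array 3.

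Gpx4 and Txnrd1 are selenoproteins. A list of 24 further genes covered selenoprotein synthesis, transport and membership, and included Selenbp1, a selenium-binding protein. Gpx1, Gpx3 and Msrb1 were counted above, with the peroxidases. Of the 24 genes 5 rose and 6 fell (45.8% called, against 21.5% of all genes), with a median difference of 0.03. Lrp8, a receptor that takes up the selenium carrier selenoprotein P, rose 3.75-fold (8.63 ± 0.18 to 10.54 ± 0.04, n = 3 each, adjusted p = 3.1e-04, limma), and Scly, selenocysteine lyase, 1.37-fold (adjusted p = 0.0071). Sephs2, which makes the selenium donor, Selenos and Selenoi had differences of 0.61, 0.48 and 0.26. Selenos was lost on leaving out any 1 array other than control array 1 (adjusted p = 0.061 to 0.097), and Selenoi on leaving out control array 3 or any 1 PDGF-BB array (0.052 to 0.061). Selenom and Selenon, selenoproteins of the endoplasmic reticulum, were 1.38-fold and 1.34-fold lower (adjusted p = 0.0044 and 0.0064, limma), and Selenop, selenoprotein P, had a difference of -0.46. Pstk, Selenow and Selenbp1 also fell, with differences of -0.39, -0.26 and -0.62. Selenow did not pass in the paired fit (adjusted p = 0.056, limma), with centred arrays (0.0502) or on leaving out any 1 array (0.055 to 0.110). Pstk did not pass on leaving out any 1 array other than control array 3 (0.051 to 0.088). Dropping control array 3, PDGF-BB array 2 or PDGF-BB array 3 left 3 genes higher. The number lower was 4 to 5 on leaving out 1 array.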

How the data were processed

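Log2 values of 6 arrays were deposited by the authors in 1 table, made with RMA, which corrects background, quantile-normalizes across arrays and summarises each probe set, per the submitters' processing notes; its software version was not given in the sources used here. RMA hides changes in total RNA. Of 21225 probe sets 20239 have exactly 1 symbol in GEO's platform annotation, updated through Entrez numbers to RefSeq symbols; 986 (4.65%) are unnamed here and were left out. Arrays of a group correlated at 0.994 to 0.996 and none was a copy. Arrays give no read depth, and 3 per group limits precision.

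The comparison used limma 3.58.1 in R 4.3.3 (lmFit, eBayes, two-sided, Benjamini-Hochberg over 20239 genes, threshold 0.05), with group as the only factor, tested on simulated data. Folds are "at least" where the lower mean is under background. Like-numbered arrays deviated together (r = 0.25, 0.32 and 0.25 across genes), so the numbers were taken to pair them. Blocking on the number was an alternative. Apart from values given for that paired fit, the p-values, SEs and intervals leave the pairing out.

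Members and lists were chosen with earlier results of these data known. Of 208 list genes 198 were measured. Named are the members, Slc3a2, Nfe2l2, Keap1, Bach1, Atf4 and Gss, the 5 genes most like Slc7a11, and of each list up to 4 called genes with the smallest p, at most 2 per direction where both occur. Other genes named, among them those that complete counts of 5 or fewer, were chosen after their values were seen.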

Additional observations from a re-analysis of the deposited data

How the results depend on the processing

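All 119 values of the 10 genes under the 12 alternatives moved by less than 1 SD between replicates. Most of them could not have moved further. Blocking, the intensity trend, the filter on dim genes and testing all probe sets leave a gene's own difference unchanged. Dropping 1 of 3 arrays always shifts a difference by less than that limit. Slc7a11 ranged from 2.82 to 3.21, and 4 values of Gclm and Hmox1, which lay near 0, changed sign. Leaving out the genes of below-median mean removes Slc7a11 itself. With the replicate number as a block 4741 genes passed and 91 of the list genes; of the list counts, that of peroxidases, thioredoxins and superoxide enzymes higher moved by over 1.5 times, to 2, and the others by 1 gene at most. That count was 2 with centred arrays and 3 without dim genes. With centred arrays 5 other glutathione genes rose. With an intensity trend 3 ferroptosis, iron and heme genes fell. Leaving out each array gave 1514 to 2188 genes lower in all, 24 to 33 list genes lower, 1 to 3 cysteine genes higher, 1 to 3 NRF2 regulators lower, 0 to 4 peroxidase, thioredoxin and superoxide genes higher, 4 to 6 ferroptosis genes higher and 1 to 3 lower, and 3 to 6 selenoprotein genes higher. The causes were not tested. ATF4 pathway genes higher ranged from 19 to 21 and other NRF2 targets higher from 4 to 5. Dim genes, such as Slc7a11 in control, have understated differences.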
